A study of Mus musculus with 10 samples.

Results

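The genes of sphingosine-1-phosphate (S1P) signaling were followed in brain RNA of 10 mice, because the drug given in the study, FTY720, acts through this pathway. The members were the 10 rows of the count table whose gene name is S1pr1, S1pr2, S1pr3, S1pr4 or S1pr5 (the S1P receptors), Sphk1 or Sphk2 (the sphingosine kinases), Sgpp1 (an S1P phosphatase), Sgpl1 (the S1P lyase) or Spns2 (an S1P exporter). All 10 names were found among the 54532 genes of the table, and 9 of the 10 had enough counts to be tested among 17665 genes. S1pr4 did not.

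All 10 mice were Slc20a2 homozygous knockout (HO) animals from crosses of heterozygous carriers of a tm1a allele, so the placebo mice carried the knockout allele too, and no wild-type brain entered these comparisons. FTY720 was injected into the peritoneum of 6 mice at 0.5 mg/kg in DMSO, 3 times a week for 12 weeks from the age of 1.5 months, and 4 placebo mice received DMSO alone on the same schedule. The mice were perfused with PBS before RNA was taken. Each mouse is named by F (FTY720) or P (placebo), a digit and a number, as in F3-609. The digit was 1 in 3 FTY720 mice and 1 placebo mouse (P1-623), and 3 in 3 FTY720 mice and 3 placebo mice. The sources used here do not say what the digit stands for.

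S1P is made when a sphingosine kinase phosphorylates sphingosine. It is turned back by S1P phosphatases, cut irreversibly by the lyase and carried out of cells by exporters, and outside the cell it binds G protein-coupled receptors. FTY720 (fingolimod) is a sphingosine analog that is itself phosphorylated in the body, mainly by sphingosine kinase 2, and the phosphate binds every S1P receptor except S1PR2. Prolonged binding removes S1PR1 from the surface of lymphocytes, which then stay in lymph nodes. In the brain S1pr1 is known from astrocytes and endothelial cells and S1pr5 from oligodendrocytes.

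The 2 kinases are closely related enzymes, and their messages are set side by side here because the treatment differences called below concern them. The lines give 120 coding bases of each, 5′ to 3′, from the GENCODE M21 transcript with the longest coding region, on GRCm38. The capitals mark the longest run of bases that the 2 coding regions share.
Sphk1, chr11:116535144-116535340, plus strand: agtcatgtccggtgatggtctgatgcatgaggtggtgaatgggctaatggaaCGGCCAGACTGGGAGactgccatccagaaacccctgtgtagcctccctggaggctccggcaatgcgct
Sphk2, chr7:45712085-45712287, minus strand: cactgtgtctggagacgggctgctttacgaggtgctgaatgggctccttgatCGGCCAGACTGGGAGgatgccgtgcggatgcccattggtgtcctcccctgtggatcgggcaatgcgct

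Both stretches span an exon junction, so the coordinates hold an intron. The shared run was 15 bases, and among the 5 receptors the longest run shared by any pair was 19 bases, between S1pr2 and S1pr5. The Sphk1 stretch was 58.3% G or C and the Sphk2 stretch 61.7%. Over the whole transcript, G and C made up 59.6% of Sphk1 and 58.6% of Sphk2, above 94.7% and 92.2% of the genes tested, a property that is taken up again below. Sphk2 lies at chr7:45709467-45718002 on the minus strand, and 12.96% of its 4159 exonic bases also belong to Dbp and 8.97% to Rpl18, both on the plus strand. Sphk1 lies at chr11:116530925-116536674 on the plus strand, and 4.02% of its exonic bases are shared with Gm29292. The strand setting of the counting is not given in the sources used here, so how reads from the shared exons were assigned is not known.

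The libraries held between 14772745 and 18303981 counts per mouse. Counts of Slc20a2, the targeted gene, ran from 89 to 294, and with no wild-type mouse they do not check the genotype. The digit divided the libraries more than the treatment did: 5010 genes had an adjusted p under 0.05 between digits 3 and 1, against 0 between FTY720 and placebo. All 12 cerebellum markers (Gabra6, Cbln1 and others) were higher with digit 3 at this threshold, against 13.9% of all genes tested, and their summed level was 2308 to 2899 CPM (counts scaled to a common library size) against 820 to 942 with digit 1. Single markers differed in the size of this change. Gabra6 ran from 0.059 to 0.24 CPM with digit 1 and from 130 to 172 CPM with digit 3. Cbln1 ran from 24.6 to 39.2 CPM and from 166 to 231 CPM. Of 8 cortex and hippocampus markers 7 were lower, against 14.4% of all genes, at 749 to 1037 against 1261 to 1447 CPM. The part of this regional difference in the values below was not tested. In RNA of whole tissue, fewer cells of a type and less RNA per cell cannot be told apart.

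Compared per length, as FPKM (fragment counts scaled by gene length and library total), S1pr1 was the most abundant member in every mouse. Its level was 46.0 ± 3.32 FPKM (mean ± SD, n = 10, as for the levels that follow). Spns2 came next at 12.9 ± 0.90 FPKM, then Sgpp1 at 10.6 ± 1.18 FPKM and S1pr5 at 8.39 ± 1.02 FPKM. Sgpl1 had 6.62 ± 1.02 FPKM and Sphk2 6.12 ± 1.21 FPKM. The remaining members were low: S1pr3 had 2.04 ± 0.270 FPKM, Sphk1 1.0 ± 0.258 FPKM, S1pr2 0.353 ± 0.0554 FPKM and S1pr4 0.221 ± 0.0964 FPKM. Neighbours in this order whose ranges overlapped were Spns2 and Sgpp1, S1pr5 and Sgpl1, Sgpl1 and Sphk2, and S1pr2 and S1pr4. Even so, Spns2 was above Sgpp1 within 10 of 10 mice and S1pr5 above Sgpl1 within 9 of 10, whereas Sgpl1 exceeded Sphk2 in only 6 of 10.

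**Figure D1:**
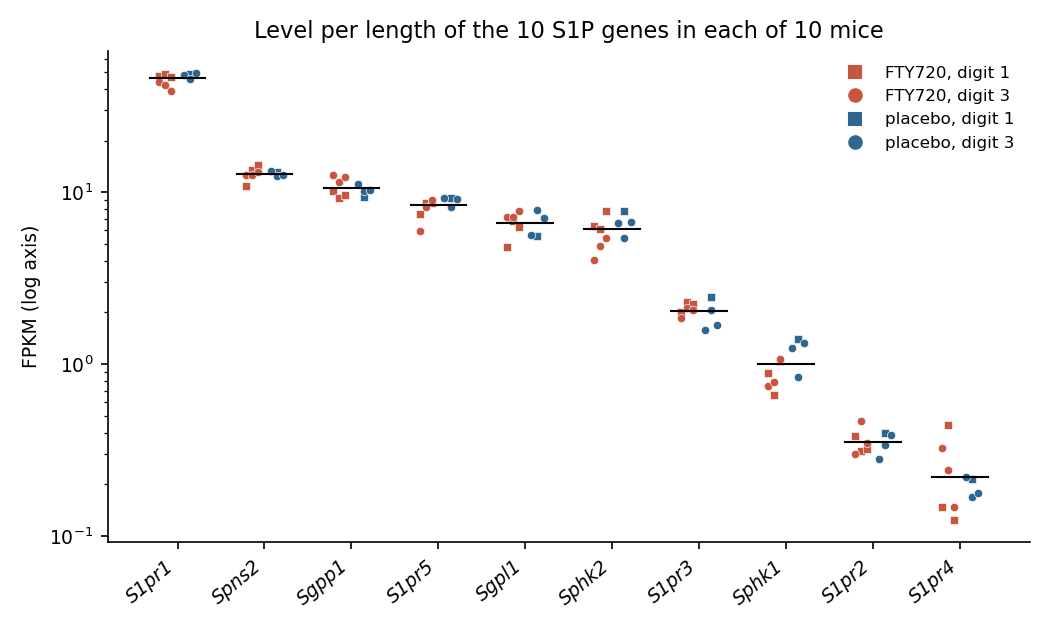
Level of each S1P gene in each mouse, in FPKM on a log axis. Points are mice, colored by treatment with squares for digit 1 and circles for digit 3, and black lines are means over the 10 mice. S1pr1 stands apart at 39.0 to 49.4 FPKM and S1pr4 is at the bottom at 0.124 to 0.440 FPKM.

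The receptors were thus dominated by a single member. S1pr1, at chr3:115710433-115715072, made up 77.1% to 83.9% of the summed receptor FPKM, with a median of 80.7%. S1pr5 made up 11.4% to 17.8%, with a median of 15.0%. S1pr3, which couples to several G proteins, made up 2.65% to 4.09%. S1pr2, the receptor that the FTY720 phosphate does not bind, made up 0.469% to 0.872%, and S1pr4, known from lymphocytes, 0.212% to 0.731%. Among the kinases, Sphk2 was 5.08 to 9.29 times Sphk1 in FPKM within each mouse, with a median of 5.83. The kinase that is known to phosphorylate FTY720 was therefore the more abundant one in all 10 brains.

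Differences between groups were tested on the counts with edgeR's quasi-likelihood test, and a log2 fold change (log2 FC) is given with its standard error (SE). Without a covariate, 1 of the 9 tested members had an unadjusted p under 0.05 between FTY720 and placebo, against 2.61% of all genes tested. With the digit in the model, 2 of 9 members were lower, against 7.79% of all genes, and 0 of 9 higher, against 4.98%. No gene of the table reached an adjusted p under 0.05 in either fit (with the digit in the model, DESeq2 called 24 genes, none of them a member, and edgeR without a filter on low counts called 338, none of the tested members among them), while 461 and 2256 genes had an unadjusted p under 0.05. Between the digits, with treatment in the model, 1 of 9 members was higher and 1 lower at an adjusted p under 0.05, against 13.9% and 14.4% of all genes. The median log2 FC over the members was -0.01, -0.02 and -0.09 in these 3 comparisons, beside -0.00298, -0.00744 and -0.0107 over all genes.

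**Figure D2:**
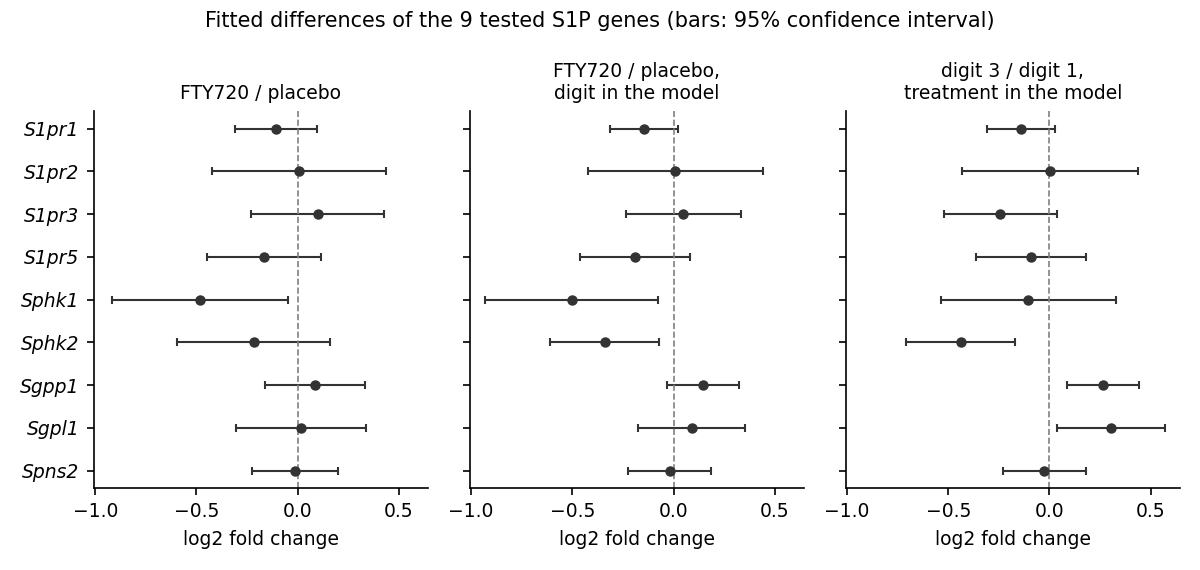
Fitted log2 fold change of the 9 tested S1P genes (points) with 95% confidence intervals (bars) in 3 comparisons, from edgeR. Intervals clear of 0 belong to Sphk1 in the first panel, Sphk1 and Sphk2 in the second, and Sphk2, Sgpp1 and Sgpl1 in the third, where Sgpl1 did not pass after adjustment.

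Sphk1 was the member with an unadjusted p under 0.05 between FTY720 and placebo in both fits, and it passed in neither after adjustment. Its CPM was 4.25, 3.18 and 5.04 in the FTY720 mice F1-622, F1-624 and F1-918, and 3.58, 3.78 and 5.20 in F3-609, F3-612 and F3-908. It was 6.81 in the placebo mouse P1-623 and 6.0, 4.04 and 6.45 in P3-612, P3-904 and P3-907. The highest 3 values were all placebo mice, but P3-904 lay within the FTY720 range, so the groups overlapped. These levels rest on 54 to 119 counts per mouse, for which counting error alone gives a coefficient of variation of 11.2%, against 21.4% between mice of a group.

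The mean of Sphk1 was 4.17 ± 0.812 CPM with FTY720 (SD, n = 6) and 5.83 ± 1.23 CPM with placebo (SD, n = 4). The fitted difference without covariate was a log2 FC of -0.48 (SE 0.20, 95% confidence interval -0.92 to -0.04). Its unadjusted p in edgeR was 0.0332, and the Benjamini-Hochberg adjusted p was 0.99992. With the digit in the model the log2 FC was -0.50 (SE 0.20, edgeR adjusted p = 0.364), with an unadjusted p of 0.0246. By exact permutation of the mice (two-sided, on log2 CPM) p was 0.0524 over 210 assignments and 0.0375 over the 80 within digit. The call without covariate was lost when any of F1-624, F3-609, F3-612, P3-612, P1-623 or P3-907 was left out, with unadjusted p up to 0.0985. With the digit in the model it was lost without F3-609, F3-612, P1-623 or P3-907, with unadjusted p from 0.0519 to 0.147. Between the digits Sphk1 did not pass (log2 FC -0.10, SE 0.20, edgeR adjusted p = 0.726).

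Sphk2 passed between the digits after adjustment and between FTY720 and placebo only before it, with the digit in the model. In the digit 1 mice its CPM was 26.6, 25.8 and 32.7 with FTY720 (F1-622, F1-624, F1-918) and 32.9 in P1-623. In the digit 3 mice it was 16.8, 20.2 and 23.0 with FTY720 (F3-609, F3-612, F3-908) and 28.0, 22.8 and 28.6 with placebo (P3-612, P3-904, P3-907). The lowest 2 values were FTY720 mice of digit 3 and the highest was the placebo mouse of digit 1, while P3-904 fell just under the highest FTY720 mouse of its digit.

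Without covariate, Sphk2 gave a log2 FC of -0.22 for FTY720 (SE 0.17, 95% confidence interval -0.59 to 0.16). With the digit in the model the log2 FC was -0.34 (SE 0.12, 95% confidence interval -0.61 to -0.07), with an unadjusted edgeR p of 0.0170 and an adjusted p of 0.354. Among the 6 digit 3 mice alone it was -0.40 (SE 0.16, edgeR adjusted p = 0.654), and the exact permutation test within digit gave p = 0.0625. Between the digits, Sphk2 was lower with digit 3 at a log2 FC of -0.44 (SE 0.12, edgeR adjusted p = 0.0203), from 29.5 ± 3.83 CPM in 4 mice to 23.2 ± 4.52 CPM in 6. The exact permutation p of the digit difference, which leaves the treatment aside, was 0.0714. The digit call was lost in edgeR, with adjusted p from 0.0513 to 0.0639, without F1-918, F3-609, F3-612 or P1-623. It was also lost among FTY720 mice alone (adjusted p = 0.0503), without treatment in the model (0.107) and with GC content and length trends removed, as given below. The treatment call was lost without F3-609 (log2 FC -0.26) or P3-907 (log2 FC -0.30).

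The genes that share exons with Sphk2 on the other strand moved with the digit as well. Rpl18, a ribosomal protein gene, was lower with digit 3 at a log2 FC of -0.69 (SE 0.17, edgeR adjusted p = 0.0111) and had -0.38 (SE 0.17) for FTY720 with the digit in the model. Dbp, a clock-controlled transcription factor, was lower with digit 3 at -0.78 (SE 0.16, edgeR adjusted p = 0.00402) and gave -0.11 (SE 0.16) for FTY720. Whether any of their reads entered the Sphk2 counts was not tested.

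**Figure D3:**
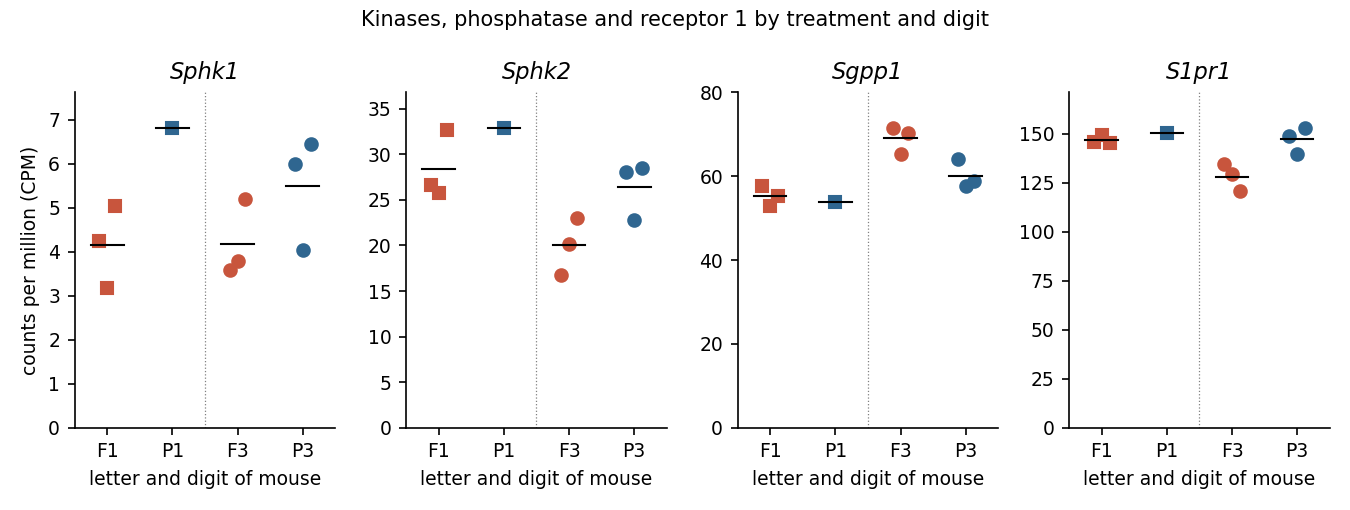
CPM of Sphk1, Sphk2, Sgpp1 and S1pr1 in each mouse, from 0, with F1, P1, F3 and P3 giving the letter and digit of the mouse and black lines the mean of each set (1 to 3 mice). For S1pr1 the 3 FTY720 mice of digit 3 (121 to 134 CPM) sit below all other mice (139.5 to 153 CPM), and for Sgpp1 they sit above all other mice.

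Sgpp1, which returns S1P to sphingosine inside the endoplasmic reticulum membrane, ran the other way from Sphk2. It lies at chr12:75714249-75735729, and no other annotated gene shares its exons. Its CPM in the digit 1 mice was 57.7, 53.0 and 55.3 with FTY720 and 53.9 with placebo. In the digit 3 mice it was 71.5, 65.3 and 70.2 with FTY720 (F3-609, F3-612, F3-908) and 64.0, 57.6 and 58.8 with placebo (P3-612, P3-904, P3-907). Within digit 3 all FTY720 mice were above all placebo mice, and between the digits the ranges met only where F1-622 at 57.7 CPM exceeded P3-904 at 57.6 CPM.

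The digit difference of Sgpp1 was a log2 FC of 0.26 (SE 0.08, edgeR adjusted p = 0.0305), and its exact permutation p was 0.0143. It was no longer called in edgeR without a filter on low counts. There the SE rose to 0.12 and the unadjusted p from 0.00684 to 0.0393, and the adjusted p over more genes was 0.172. Leaving out any of F1-624, F1-918, F3-609, F3-612, F3-908, P1-623 or P3-907 also took it past the threshold, with adjusted p from 0.0512 to 0.0812, as did fitting FTY720 mice alone (0.0749) or leaving the treatment out of the model (0.0819). For FTY720 the log2 FC was 0.09 without covariate (SE 0.11), 0.15 with the digit in the model (SE 0.08, edgeR adjusted p = 0.465) and 0.20 among the digit 3 mice (SE 0.11, edgeR adjusted p = 0.654). The exact permutation p within digit was 0.05. With GC content and length trends removed, the treatment values of Sgpp1 fell to 0.00811 without covariate and 0.0384 with the digit.

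Sgpl1, the lyase that removes S1P for good, had 29.6, 42.0 and 39.2 CPM in F1-622, F1-624 and F1-918, and 34.7 CPM in P1-623. In the digit 3 mice it had 44.5, 44.0 and 48.3 CPM with FTY720 and 35.3, 49.0 and 44.2 CPM with placebo. The mice of digit 3 were higher except P3-612. The log2 FC between the digits was 0.30 (SE 0.12, edgeR adjusted p = 0.0815), which did not pass, with an exact permutation p of 0.0524, and without P3-612 the adjusted p was 0.0364. For FTY720 with the digit in the model the log2 FC was 0.09 (95% confidence interval -0.17 to 0.35).

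S1pr1 was the receptor whose values lay apart by treatment among the digit 3 mice. It had 145, 149 and 145 CPM in the FTY720 mice of digit 1 and 150.1 CPM in P1-623. In the digit 3 mice it had 134, 129 and 121 CPM with FTY720 (F3-609, F3-612, F3-908) and 149, 139.5 and 153 CPM with placebo (P3-612, P3-904, P3-907). Of the 9 members, S1pr1 (lower with FTY720) and Sgpp1 (higher) were the 2 whose groups were apart among digit 3 mice, against 12.9% of 17656 genes in either direction.

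The fitted log2 FC of S1pr1 for FTY720 was -0.11 without covariate (SE 0.09), -0.15 with the digit in the model (SE 0.08, 95% confidence interval -0.31 to 0.02, edgeR adjusted p = 0.452) and -0.19 among digit 3 mice (SE 0.10, edgeR adjusted p = 0.654). None of these passed. The exact permutation test within digit gave p = 0.0125, the smallest that its 80 assignments allow, whereas over all 210 assignments p was 0.138. The interaction of treatment and digit was not detectable for S1pr1 (log2 scale -0.17, 95% confidence interval -0.54 to 0.21), nor for any other member, where every interval included 0. Only 1 placebo mouse had the digit 1, and over all genes the interaction gave 0 genes at an adjusted p under 0.05 and 345 at an unadjusted one.

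S1pr5, at chr9:21242912-21248443, had 14.9, 20.7 and 22.9 CPM in F3-609, F3-612 and F3-908 and 18.9, 21.9 and 22.0 CPM in the FTY720 mice of digit 1. The placebo mice had 23.5, 23.4, 20.6 and 23.3 CPM (P1-623, P3-612, P3-904, P3-907). P3-904 lay within the FTY720 range, so the groups overlapped. The log2 FC for FTY720 with the digit in the model was -0.19 (SE 0.13, 95% confidence interval -0.46 to 0.08). It turned to 0.03 with GC content and length trends removed, as described below.

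The other receptors were measured with less precision. S1pr3 ran from 7.13 to 11.2 CPM, with 9.07 to 11.2 CPM in the 4 mice of digit 1 and 7.13 to 9.48 CPM in the 6 mice of digit 3. Its log2 FC between the digits was -0.24 (SE 0.13, edgeR adjusted p = 0.176), while the exact permutation test by digit, which is not adjusted over genes, gave p = 0.0381. For FTY720 its log2 FC was 0.05 with the digit in the model (95% confidence interval -0.23 to 0.33). S1pr2 was at 2.26 to 3.72 CPM, or 38 to 64 counts, with a log2 FC for FTY720 of 0.01 (95% confidence interval -0.42 to 0.44), so that changes inside this interval could not be seen. S1pr4 had 5 to 18 counts per mouse and 33.5% counting error, and without the filter its log2 FC for FTY720 was 0.29 (SE 0.48, 95% confidence interval -0.70 to 1.28). The receptor that marks lymphocytes was thus near the limit of detection in both groups, at 0.30 to 1.06 CPM with FTY720 and 0.404 to 0.535 CPM with placebo.

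Spns2, which exports S1P from endothelial and other cells, passed in neither comparison as fitted, though with GC content and length trends removed both of its directions turned and it was called, as described below. It lies at chr11:72451638-72489904, and 3.21% of its exonic bases are shared with Mybbp1a on the other strand. It had 44.5, 55.7 and 59.1 CPM in the FTY720 mice of digit 1 and 54.8 CPM in P1-623. In the digit 3 mice it ran from 51.7 to 54.4 CPM with FTY720 and from 51.4 to 55.0 CPM with placebo. Its log2 FC was -0.02 for FTY720 with the digit in the model (SE 0.09, 95% confidence interval -0.22 to 0.18) and -0.03 between the digits (95% confidence interval -0.23 to 0.18).

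Fold changes over all genes ran with the GC content of the transcripts, which is high in both kinases. Among the 1765 genes of the highest GC content (57.8% or more), the median log2 FC was -0.257 for FTY720 with the digit in the model and -0.367 between the digits, and among as many genes of the lowest GC content it was 0.165 and 0.331. Sphk1, Sphk2 and Spns2 (58.0% GC) belong to the GC-rich genes, although Spns2 had only -0.02 and -0.03, whereas S1pr5 (57.1%) lies close to them and Sgpp1 (46.0%), S1pr1 and Sgpl1 (48.8% each) lie lower. By mouse, the GC-rich genes and Sphk2 stood at -0.421 and -0.583 in F3-609, -0.216 and -0.321 in F3-612, 0.248 and 0.371 in F1-918, and 0.355 and 0.380 in P1-623, as log2 deviations from the mean of the 10 mice. Sphk1 kept less closely to them, at -0.542 in F1-624, where the GC-rich genes stood at 0.0670, and 0.145 in F3-908, where they stood at -0.104.

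**Figure D4:**
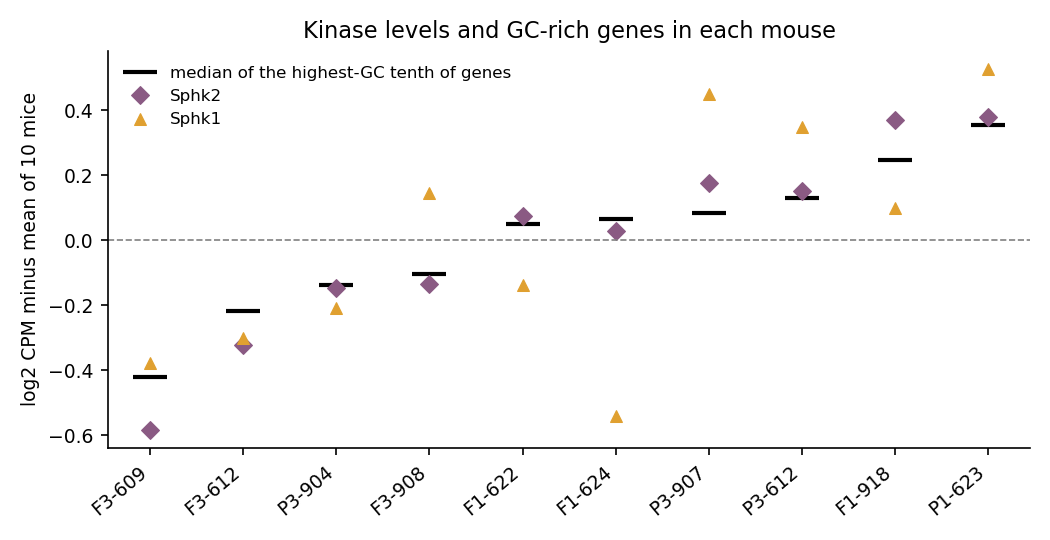
Deviation of Sphk1 (triangles), Sphk2 (diamonds) and the median of the 1765 genes of highest GC content (bars) from their mean over 10 mice, on the log2 CPM scale, with mice ordered by the GC-rich genes. Sphk2 lies between -0.583 in F3-609 and 0.380 in P1-623 and follows the bars, whereas Sphk1 departs from them most in F1-624.

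After smooth trends with GC content and with gene length were taken out of each library, none of the 5 calls above remained. Sphk1 then gave a log2 FC for FTY720 of -0.32 without covariate and -0.28 with the digit in the model, with unadjusted p of 0.0944 and 0.121 in edgeR. Sphk2 gave -0.13 for FTY720, with an unadjusted p of 0.129, and -0.13 between the digits (edgeR adjusted p = 0.255), and Sgpp1 gave 0.13 between the digits (edgeR adjusted p = 0.265). All 5 values kept their sign at a smaller size. Without covariate 0 of 9 members were then called in either direction, against 2.49% of all genes.

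Spns2 came to the fore instead. Its log2 FC turned to 0.18 for FTY720 with the digit in the model (edgeR adjusted p = 0.754, unadjusted 0.0467) and to 0.27 between the digits (edgeR adjusted p = 0.0290), so that 1 of 9 members was called higher in each, against 2.59% and 11.9% of all genes with the trends removed. S1pr5 turned from -0.19 to 0.03 for FTY720 and from -0.09 to 0.22 between the digits (edgeR adjusted p = 0.128). S1pr1, whose GC content is near the middle of the genes, hardly moved, from -0.15 to -0.14 for FTY720 (edgeR adjusted p = 0.767). The directions of Spns2 and S1pr5 in both comparisons, and of Sphk1 between the digits (from -0.10 to 0.21), therefore depend on this choice.

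**Figure D5:**
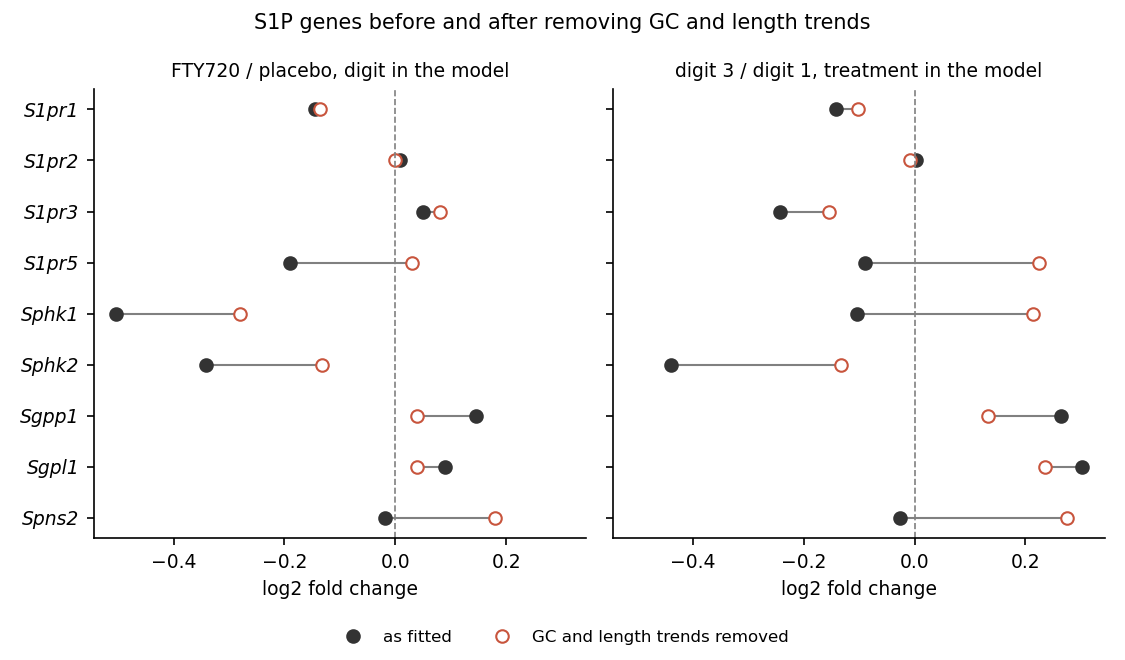
Log2 fold change of the 9 tested S1P genes as fitted (filled) and with GC content and gene length trends removed (open), for FTY720 over placebo and for digit 3 over digit 1. Sphk2 moves from -0.34 to -0.13 and from -0.44 to -0.13, Spns2 crosses 0 in both panels, and S1pr1 stays at -0.15 and -0.14 for the treatment.

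The genes nearest in profile to the 2 members called between the digits were searched among 13160 protein-coding genes, by the mean absolute difference of centred log2 CPM over the 10 mice. For Sphk2 they were Thap11 (0.0468), Kctd17 (0.0513) and Map7d1 (0.0519), where Sphk2 itself deviated by 0.237 from its mean and the median gene was 0.287 away. Their transcripts were 58.1%, 61.2% and 62.5% G or C. For Sgpp1 they included Ist1 (0.0363) and Mtpap (0.0424), at 46.2% and 44.0%, where Sgpp1 deviated by 0.131 and the median gene was 0.236 away.

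Of 38 further genes of sphingolipid metabolism, 35 were tested. With the digit in the model 2 were higher with FTY720 at an unadjusted p under 0.05, a share close to the 4.98% of all genes, and 0 were lower, against 7.79%. The median log2 FC was 0.06, and none passed after adjustment in this edgeR fit. The 2 genes encode ceramidases, which release sphingosine from ceramide. Acer2 had a log2 FC of 0.32 (SE 0.13, edgeR adjusted p = 0.365) and Asah1 0.21 (SE 0.09, edgeR adjusted p = 0.382). Between the digits 8 were higher and 4 lower at an adjusted p under 0.05, beside 13.9% and 14.4% of all genes.

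The second S1P phosphatase, Sgpp2, differed most clearly among the latter. It had 20.5 to 27.4 CPM in the 4 mice of digit 1 and 49.7 to 63.9 CPM in the 6 mice of digit 3, with no overlap (7.8% of all genes were apart in this direction) and a log2 FC of 1.29 (SE 0.11, edgeR adjusted p = 7.13e-06). Sptssb, a small subunit of serine palmitoyltransferase, had 1.45 (edgeR adjusted p = 0.000279), Cerk, the ceramide kinase, 0.59 (edgeR adjusted p = 0.000878), and Smpd3, a neutral sphingomyelinase, -0.52 (edgeR adjusted p = 0.00643). Sgpp2 did not pass by treatment with the digit in the model (log2 FC 0.16, SE 0.11, edgeR adjusted p = 0.519).

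Of 5 carriers and other exporters, 4 were tested, and 1 was higher with FTY720 at an unadjusted p under 0.05, beside 4.98% of all genes. Abcg2, a transporter of the blood-brain barrier that is counted here among the ABC proteins linked to S1P export, had 19.2 to 24.5 CPM in the FTY720 mice and 13.5 to 17.3 CPM in the placebo mice. It is named for the smallest p of its list. The groups did not overlap, as for 0.436% of all genes in this direction, and the log2 FC was 0.44 with the digit in the model (SE 0.11, edgeR adjusted p = 0.354). The S1P carrier Apom, a plasma protein made in liver and kidney, had 0 to 6 counts and was not tested. None of the 4 passed between the digits.

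Of 17 genes of G proteins and regulators downstream of the receptors, 1 was higher and 2 lower with FTY720 at an unadjusted p under 0.05, shares near the 4.98% and 7.79% of all genes. None passed after adjustment in the edgeR fit with the digit in the model. Rock1, a kinase below RhoA, had a log2 FC of 0.33 (SE 0.11), Gna12 -0.34 (SE 0.10) and Gnai2, the inhibitory G protein to which S1PR1 couples, -0.20 (SE 0.09), all with the digit in the model and adjusted p of 0.354 to 0.382. Between the digits 2 were higher and 3 lower at an adjusted p under 0.05, beside 13.9% and 14.4% of all genes: Rock1 at 0.65 (edgeR adjusted p = 0.00154) and Rock2 at 0.31 (0.0483), against Gnai2 at -0.45 (0.00346), Gna11 at -0.43 (0.0175) and Grk6 at -0.30 (0.0247). Of the 7 genes of lysophosphatidic acid signaling, a neighbouring lipid pathway, 6 were tested and 0 passed in either comparison. Of the lymphocyte egress genes, Klf2 and S1pr1 could be tested, whereas Cd69 and Ccr7 had 0 to 4 counts. Klf2, which drives S1pr1 in lymphocytes, had a log2 FC of -0.12 for FTY720 (SE 0.27, edgeR adjusted p = 0.880).

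In the edgeR fits with the filter on low counts, no cell marker passed for FTY720 after adjustment. The treatment counts that follow are at an unadjusted p under 0.05 with the digit in the model, where 4.98% of all genes were higher and 7.79% lower. Of 14 endothelial markers, 7 were higher and 0 lower, and their summed level was 316 to 434 CPM with FTY720 and 295 to 317 CPM with placebo. Of 14 myelin markers, 5 were lower and 0 higher, at 6056 to 6965 CPM against 6819 to 7971 CPM, and of 6 oligodendrocyte lineage markers 3 were lower, at 245 to 370.0 CPM against 334 to 426 CPM. Of 10 astrocyte markers 1 was lower, with a median log2 FC of -0.01, and of 8 mural markers 1 was higher and 1 lower, with a median of 0.02. S1pr5, known from oligodendrocytes, had a median of 21.3 CPM with FTY720 and 23.4 CPM with placebo, and S1pr1, known from endothelial cells and astrocytes, 139.7 and 149 CPM. The part of these cell markers in the values of the receptors was not tested.

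Of 12 microglia markers 2 were lower with FTY720 at an unadjusted p under 0.05 and 0 at an adjusted one. Between the digits 10 were lower with digit 3 at an adjusted p under 0.05, against 14.4% of all genes, and their sum there was 308 to 460 CPM against 455 to 602 CPM with digit 1. Of 8 neuron markers 2 were lower with FTY720 (unadjusted) and 2 with digit 3 (adjusted). Of 13 T-cell markers only 4 were tested, and the summed level of all 13 was 10.2 to 18.4 CPM with FTY720 and 12.9 to 20.1 CPM with placebo. With FTY720 0 of the 4 had an unadjusted p under 0.05 with the digit in the model, and between the digits 1 was lower and 0 higher at an adjusted one. The summed level rested mostly on the T-cell receptor chain Trbc2 (mean 5.26 CPM, 30 to 134 counts per mouse) and on Cd4, which microglia also express (5.20 CPM, 63 to 125 counts). Trbc2 was the one lower with digit 3, at a log2 FC of -1.15 (SE 0.25, edgeR adjusted p = 0.00552), and had -0.46 for FTY720 (SE 0.25, edgeR adjusted p = 0.452). Cd4 (-0.33) and Lck (-0.52) ran the same way between the digits without passing. The T-cell receptor chain Trac, at 3 to 37 counts, ran the other way (0.77, SE 0.46, edgeR adjusted p = 0.227). The CD3 chains Cd3d, Cd3e and Cd3g had 0 to 9 counts. Cd3e had a mean of 0.337 CPM with digit 3 against 0.0442 with digit 1, Cd3d 0.0394 against 0.0297, and Cd3g 0.0495 against 0.102. The blood markers (4 of 5 tested) and the 7 choroid plexus markers held 0 genes at an unadjusted p under 0.05 for FTY720 with the digit in the model.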

How the data were processed

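The authors deposited whole-number read counts per gene and mouse, and FPKM values scaled by gene length and by a per-mouse total other than the sum of that mouse's counts. Per the submitters' processing notes, CASAVA 1.8, fastp, HISAT2 2.0.5, featureCounts 1.5.0-p3 and DESeq2 1.20.0 were used with GRCm38. The annotation release and strand setting are not given in the sources used here. FPKM values served for levels, and counts for tests.

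Genes passing filterByExpr were scaled by TMM and fitted in edgeR 4.0.16, R 4.3.3 (quasi-likelihood test, Benjamini-Hochberg adjustment over 17665 genes). Each standard error is the fold change on the log2 scale over the root of F. Single members were also compared by two-sided exact permutation of mean log2 CPM (prior count 2), with smallest possible p of 0.00476 over all mice, 0.0125 within digit and 0.1 among digit 3 mice. Scripts were tested on simulated counts. Alternatives were DESeq2 1.42.0, RLE scaling, other filters, limma 3.58.1 on FPKM, other covariates, trends in GC content and length removed, and each mouse left out.

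The text names all members, the genes of each pathway list with the smallest p (up to 4 by digit, up to 2 by treatment), genes nearest in profile and, after their values were seen, the overlapping genes, Rock2, Gabra6, Cbln1 and genes with too few counts. Markers are given as lists, except some T-cell genes. Members and lists were chosen with earlier results of these data known. Coordinates and transcripts are from GENCODE M21 (GRCm38). A few genes that these rules would name are not reported here.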

Additional observations from a re-analysis of the deposited data

Results flagged for a closer look

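In groups of 4 to 6 mice, 3 of 40 sets of member values held a mouse whose distance to its neighbour took up more of the range than Dixon's 95% limit allows, and chance flags about 1 in 20 such groups. S1pr5 in the placebo group was 20.61 CPM in P3-904, where the next mouse had 23.3 CPM, a gap of 0.944 of the whole range. S1pr5 in the digit 3 mice was 14.91 CPM in F3-609, which is also the mouse with the lowest level of GC-rich genes, and the next mouse had 20.61 CPM (0.671 of the range). Sgpl1 in the digit 3 mice was 35.29 CPM in P3-612, and the next mouse had 44.03 CPM (0.636 of the range). Without P3-612, Sgpl1 had a log2 fold change between the digits of 0.34 at an edgeR adjusted p of 0.0364.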

How the results depend on the processing

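Of 513 alternative values of the members' 27 log2 fold changes, 438 kept their direction and their side of the threshold, 34 no longer passed, 2 newly passed in the same direction and 39 changed sign, 2 of which (Spns2 with the trends removed) also newly passed. For FTY720 without covariate, 0 members were called with GC content and length trends removed, and 0 to 1 with a mouse left out. Among the digit 3 mice alone the called member was Sphk2 in place of Sphk1. With the digit in the model, 1 member was called with the trends removed, and 0 to 2 with a mouse left out (0 without F3-609 or P3-907, 1 without F3-612 or P1-623). Between the digits, the number was 1 without a filter on low counts, 1 with the trends removed, 0 among FTY720 mice alone, 0 without treatment in the model, and 0 to 3 with a mouse left out (0 without F1-918, F3-609, F3-612 or P1-623, 1 without F1-624, F3-908 or P3-907, 3 without P3-612). The cause was not tested.

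Signs turned with the trends removed for Sgpl1 (-0.0187) and Spns2 (0.11) without covariate, for S1pr2 (-0.000431), S1pr5 (0.0294) and Spns2 (0.18) with the digit, and for S1pr2 (-0.00824), S1pr5 (0.22), Sphk1 (0.21) and Spns2 (0.27) between the digits. They also turned for Spns2 without covariate (0.00273) and S1pr2 between the digits (-0.0165) without a filter, for S1pr2 between the digits on log2(FPKM + 0.1) (-0.00552), and for Sphk1 between the digits among FTY720 mice alone (0.0132) or without treatment in the model (0.00856). With a mouse left out, log2 fold changes that turned ran without covariate from -0.0856 to 0.0772 for S1pr2, -0.0481 to 0.117 for Sgpl1 and -0.0427 to 0.0391 for Spns2. With the digit they ran from -0.13 to 0.14 for S1pr2, -0.0154 to 0.18 for S1pr3 and -0.0387 to 0.0231 for Spns2. Between the digits they ran from -0.13 to 0.13 for S1pr2, -0.17 to 0.0119 for S1pr5, -0.23 to 0.00720 for Sphk1 and -0.0965 to 0.0283 for Spns2. S1pr1 kept its sign under every alternative, from -0.20 to -0.07 for FTY720. Counting error alone gives a coefficient of variation of 14.6% for S1pr2, 8.10% for S1pr3 and 33.5% for S1pr4, beside 17.7%, 10.9% and 48.1% between mice of a group. No paired analysis was possible because the groups share only 1 mouse number.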
